A study of Rattus norvegicus with 14 samples.

Results

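The probes described here were under the detection limit in soleus of untreated rats and measured after 1 month of treadmill training, both with and without heat acclimation. A probe was called measured in a sample when its deposited intensity was 1200 or more, in arbitrary units on a linear scale. The probes were chosen by their deposited intensities in 6 samples. The rule took probes under 1200 in the soleus control and at 1200 or more in both long-trained soleus samples. It left out any probe that did the same in heart. Of the 1185 probes on the array, 159 met the rule (13.4%). The values of those samples are therefore given as a description with no test.

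Expression was measured in soleus and heart (left ventricle, where the labels name the chamber) under 7 conditions with 1 sample each, 14 samples in all. Long exercise (Ex) was treadmill training at 24°C for 1 month, and long heat plus exercise (ExAc) added acclimation at 34°C to it. The short exercise (3dex) and short heat plus exercise (3dexac) rats had the same for 3 days. Long heat (Acc) was 34°C for 1 month without training, and short heat (2dac) was 34°C for 2 days. Control rats were untreated. The labels state 3 pools (6 animals) per group, and neither strain, sex nor age is given in the sources used here. Each file holds a single value per probe, so no sample has a replicate error.

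Soleus is a postural muscle of the hind leg made mostly of slow, oxidative fibres. Repeated endurance exercise is known to raise transcripts for mitochondrial enzymes, fuel uptake and capillary growth in such muscle, and the heart also adapts to training. Heat acclimation, in which animals live in moderate warmth for days to weeks, is known to raise heat shock proteins and to alter cardiac metabolism. The probe identifiers carry no gene name, and a match to the gene table of the rat RefSeq annotation gave 0 hits. No gene, role or sequence can thus be given, the gene lists prepared for this work were not tested, and the labelled tissues could not be checked against marker genes. By prefix, 93 of the 159 recruited probes began with R (58.5%, against 59.2% of the array) and 66 with RG (41.5%, against 40.8%).

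The arrays differed in how many probes they measured, from 531 in soleus 2dac to 945 in soleus Ex. The long-trained soleus samples had the highest counts of the 14, with 945 in Ex (79.7%) and 897 in ExAc (75.7%), against 728 in the soleus control (61.4%). Over the 261 probes that no sample lacked, the median intensity was 7059 in soleus Ex and 7592 in soleus ExAc. It was 7462 in the soleus control. These medians lie well above the limit, so they do not show how the arrays compare near it. The control samples stood apart in another way. Over the same 261 probes the rank correlation between soleus and heart was 0.895 after long heat and 0.705 to 0.827 in the other 5 treated conditions, against 0.967 in the controls. These correlations run across probes, which are not independent replicates. Since the soleus control defines the recruited probes, results with another soleus sample in its place are given at the end.

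Of the 457 probes under the limit in the soleus control, 212 (46.4%) were measured in both soleus Ex and soleus ExAc. The heart rule was met by 126 of the 591 probes under the limit in the heart control (21.3%). The lists had 53 probes in common, which left the 159. In the opposite direction, 36 of the 728 probes measured in the soleus control (4.95%) were measured in neither long-trained sample. In bulk muscle, a change in the cells that carry a transcript and a change in its amount per cell cannot be told apart.

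The recruited probes were dim ones that became measurable rather than abundant. Their median intensity was 1731 in soleus Ex and 1972 in soleus ExAc, against 607 in the soleus control. In soleus Ex they ranged from 1201 to 4604, and in soleus ExAc from 1209 to 4681. The control values ran from 126 to 1165. The medians over all probes measured in these samples were 2756 in soleus Ex and 3215 in soleus ExAc, against 3155 in the soleus control. In 77 of the 159 probes the lower of the 2 long-trained values lay under 1500, and in 25 it reached 2000.

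**Figure D1:**
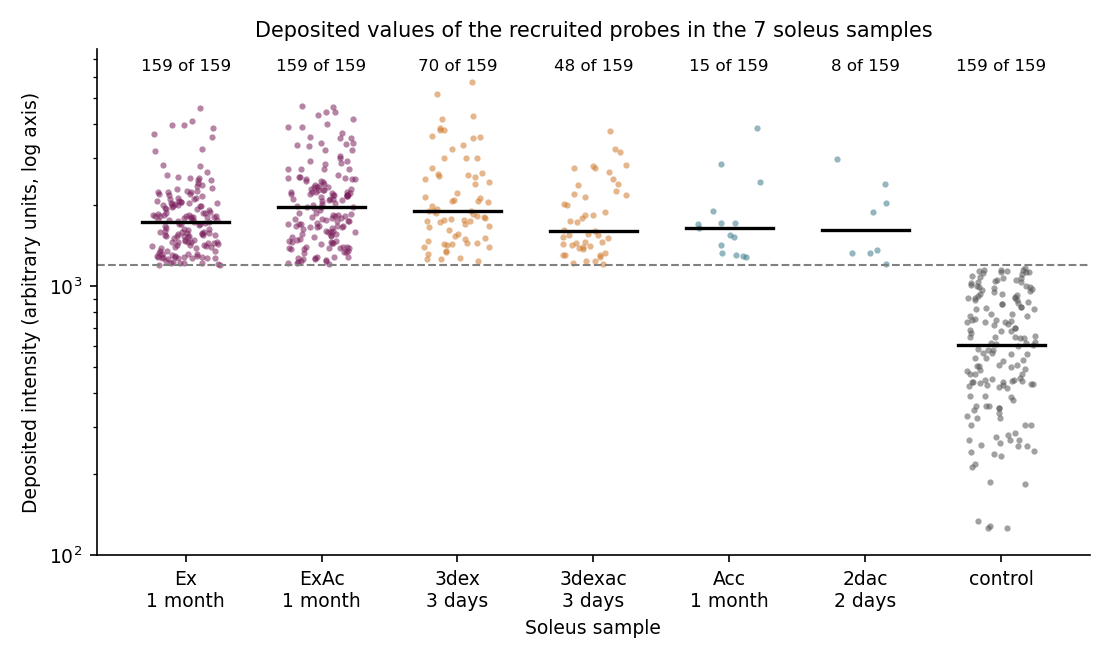
Deposited intensity of the 159 recruited probes in the 7 soleus samples, on a log axis, 1 point per probe and sample. The dashed line is the limit of 1200, bars are medians, and numbers give probes with a deposited value. In the control, where values under the limit were deposited, all 159 have a value and it lies under the limit. In 3dex, 3dexac, Acc and 2dac, 70, 48, 15 and 8 probes have a value, in each case at 1200 or more.

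The ratio of the lower long-trained intensity to the control intensity had a median of 2.65 and ran from 1.06 to 16.5. It was at least 2 for 115 probes, at least 4 for 35 and at least 8 for 5. The largest ratio belonged to probe RG294, at 2121 in soleus Ex and 2171 in soleus ExAc, against 129 in the soleus control. RG294 was empty in the other 4 treated soleus samples and in the 6 treated heart samples, and stood at 100.2 in the heart control. Probe RG080 came next with a ratio of 12.4. It had 1572 in soleus Ex and 1674 in soleus ExAc, against 127 in the soleus control and 69.0 in the heart control, and was likewise empty elsewhere. Both probes were thus near the lowest values of the control arrays and were measured in the long-trained soleus samples alone.

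At the other end, 24 of the 159 probes had 1000 or more in the soleus control. The highest control value of a recruited probe was 1165. The lowest control value just outside the rule, among probes measured in both long-trained samples, was 1210. There were 11 recruited probes between 1100 and the limit in the control, and 15 probes that missed the rule with a control value between the limit and 1300. The lowest long-trained value that met the rule was 1201 in soleus Ex. A further 72 probes under the limit in the control were measured in soleus Ex alone of the long-trained samples and 98 in soleus ExAc alone, while 75 were measured in neither.

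The rule did not use 4 of the soleus samples, which are 3dex, 3dexac, Acc and 2dac. Both exercised ones are of 3 days, while the heat-alone ones are of 1 month and 2 days, and 3dex had no heat. Across these samples exercise therefore cannot be told apart from duration and heat. Of the 159 recruited probes, 70 (44.0%) were measured in soleus 3dex and 48 (30.2%) in soleus 3dexac, against 15 (9.43%) in soleus Acc and 8 (5.03%) in soleus 2dac. Over the whole array the shares were 63.7% in 3dex and 52.6% in 3dexac, against 58.7% in Acc and 44.8% in 2dac. The recruited probes were more often measured in 3dexac than in Acc. In all, 3dexac measured 623 probes and Acc 696, and the part of this number in the shares was not tested. Of the other 298 probes under the limit in the soleus control, 26.5% were measured in 3dex and 16.4% in 3dexac, against 13.8% in Acc and 13.4% in 2dac. Those 298 include the 53 probes recruited in both tissues. The 245 that long training did not recruit in soleus stood at 16.7% in 3dex and 9.39% in 3dexac, against 8.16% in Acc and 10.2% in 2dac. Each share rests on 1 array, and the difference between the lists has no test.

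**Figure D2:**
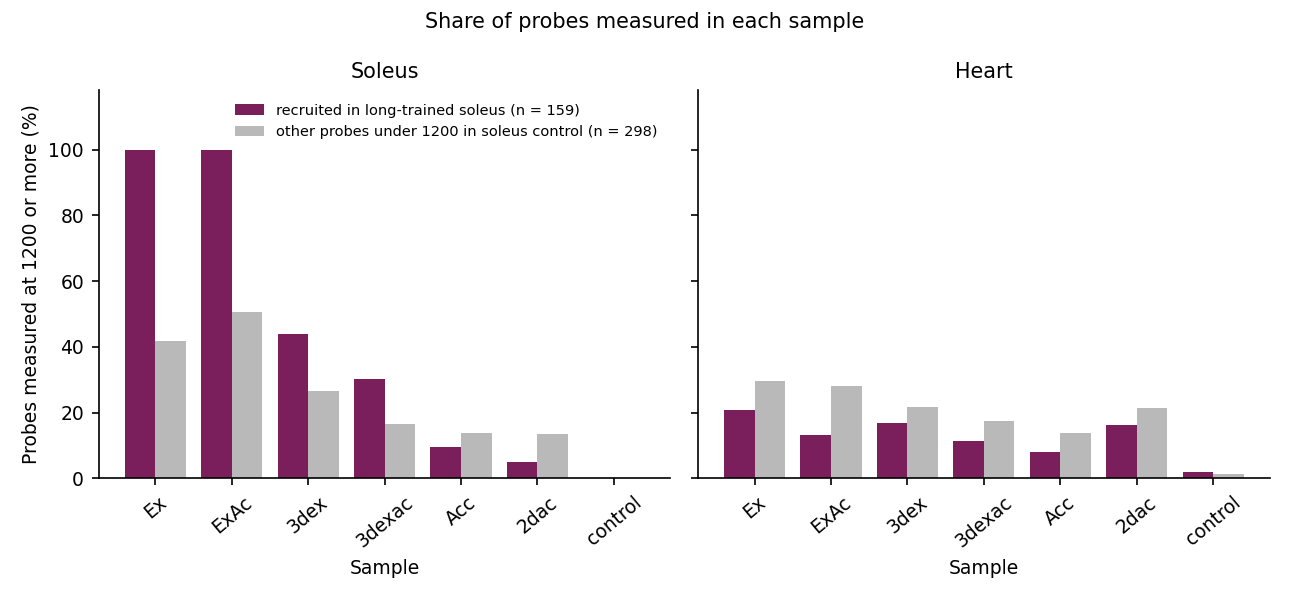
Percentage of probes at 1200 or more in each soleus sample (left) and heart sample (right), for the 159 recruited probes and for the other 298 probes under 1200 in the soleus control. The values of 100% in soleus Ex and ExAc and of 0 in the soleus control follow from the rule. In soleus 3dex and 3dexac the recruited probes stand at 44.0% and 30.2%, above the other probes, and in Acc, 2dac and all treated heart samples they stand below them. Those other probes include the 53 recruited in both tissues.

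Probe by probe, 36 of the 159 recruited probes (22.6%) were measured in both short exercise soleus samples and in neither heat-alone soleus sample, against 8.35% of all probes. Of the other 298 dim probes, 24 (8.05%) had this pattern. The reverse pattern, both heat-alone samples and neither short exercise sample, was seen in 3 recruited probes (1.89%), against 4.3% of all probes and 2.35% of the other dim probes. A recruited probe was measured in more exercised than heat-alone soleus samples in 72 cases (45.3%), against 25.7% of all probes and 22.1% of the other dim probes. It was measured in fewer in 10 cases (6.29%), against 17% of all probes and 12.1% of the other dim probes. The other 77 had equal numbers, and in 73 cases that meant none of the 4. Of the 72, 26 were measured in 3dex and in no other of the 4 samples, and 6 in 3dexac and in no other.

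In heart, the same patterns were rare. Measured in both short exercise heart samples and in neither heat-alone heart sample were 4 recruited probes (2.52%), against 4.05% of all probes and 4.36% of the other dim probes. The reverse pattern was seen in 2 recruited probes (1.26%), against 0.591% of all probes. More exercised than heat-alone heart samples were counted for 26 recruited probes (16.4%), against 18.9% of all probes and 14.8% of the other dim probes. Fewer were counted for 22 (13.8%), against 11.7% of all probes and 14.4% of the other dim probes. Both heart shares were near those of the array. The other dim probes include the 53 recruited in both tissues. Of the 245 that long training did not recruit in soleus, 3 (1.22%) were in both exercised and neither heat-alone heart sample. More exercised samples were counted for 6.94% of the 245 and fewer for 12.2%. The recruited probes stood above the 245 in each of these heart classes, and the difference has no test.

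**Figure D3:**
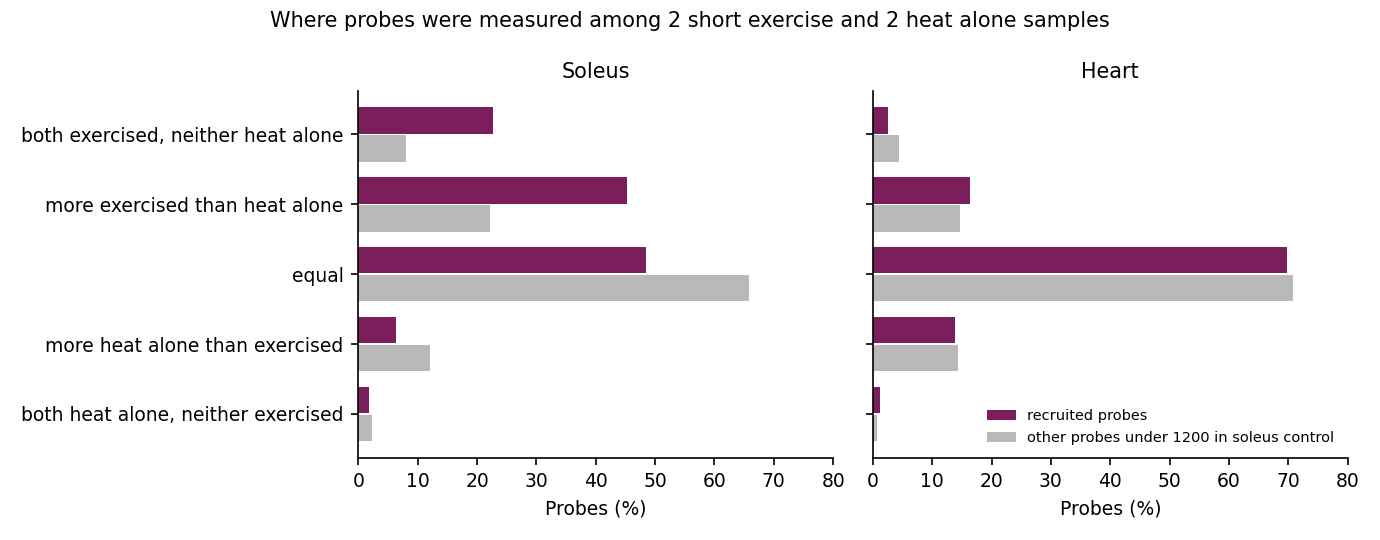
Percentage of probes by where they were measured among the 2 short exercise samples (3dex, 3dexac) and the 2 heat-alone samples (Acc, 2dac) of soleus (left) and heart (right), for the 159 recruited probes and the other 298 probes under 1200 in the soleus control. The top and bottom classes are contained in those next to them. In soleus 22.6% of recruited probes were in both exercised and neither heat-alone sample, against 8.05% of the others, and in heart 2.52% against 4.36%. The others include the 53 probes recruited in both tissues, with 28.3% in soleus and 18.9% in heart. The remaining 245 had 3.67% in soleus and 1.22% in heart, below the recruited probes in both tissues.

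The shares measured after 3 days of exercise were also taken by range of the soleus control intensity. The other probes in these ranges include the 53 recruited in both tissues, which were not taken apart by range. For recruited probes between 300 and 500 in the soleus control, 42.5% of 40 were measured in 3dex and 30% in 3dexac. The other 67 probes of that control range were measured in 7.46% and 4.48% of cases. Between 500 and 700, the share in 3dex was 42.4% of 33 recruited probes, against 25.9% of the other 54, and in 3dexac it was 33.3%, against 14.8%. In the range of 700 to 900 the share in 3dex was 52.0% in both lists, and in 3dexac it was 36% of 25 recruited probes, against 24% of the other 50. From 900 to the limit the share in 3dex was 56.4% of 39, against 46.0% of 63. In 3dexac the recruited probes of that highest range stood at 30.8%, below the other probes at 34.9%. Among the 39 recruited probes of the highest range, 33.3% were also measured in Acc and 12.8% in 2dac, whereas in the 4 lower ranges these shares were 0% to 3.03% and 0% to 5%. Under 300 only 22 probes were recruited, and 18.2% of them were measured in each short exercise sample, against 7.81% of the other 64 in 3dex and 6.25% in 3dexac.

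**Figure D4:**
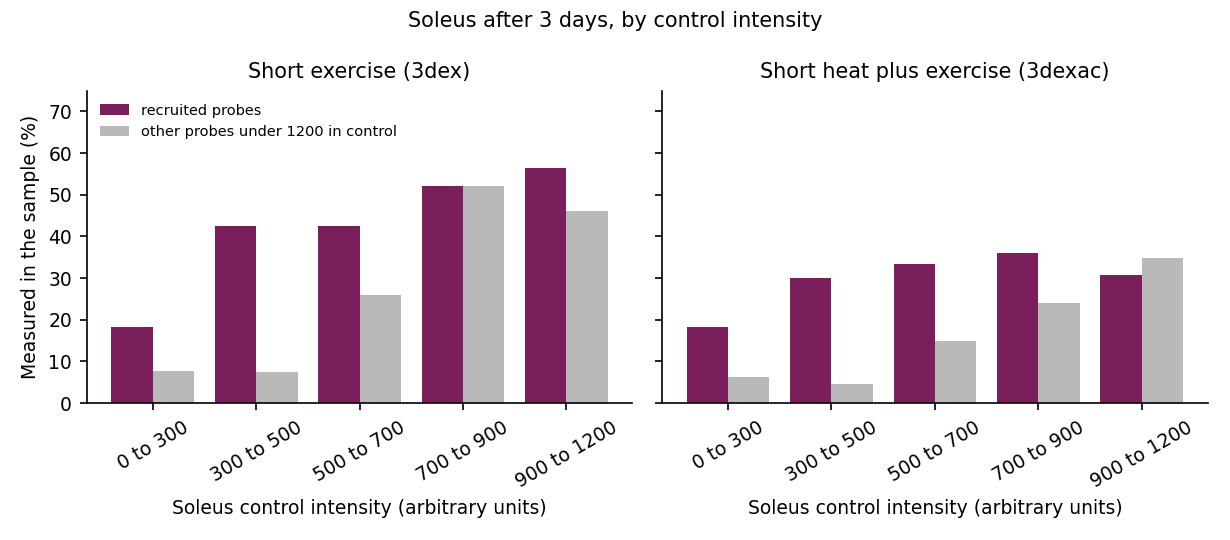
Percentage of probes measured in soleus 3dex (left) and 3dexac (right) by their intensity in the soleus control. Shown are the 159 recruited probes and the other 298 probes under 1200 there. The other probes include the 53 recruited in both tissues. In the 300 to 500 range the recruited probes stand at 42.5% and 30%, against 7.46% and 4.48% of the others, while in the highest range the bars are closer, at 56.4% and 30.8% against 46.0% and 34.9%.

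Time of training was compared at the level of intensity where both samples measured a probe. The rule used the values in Ex and ExAc, and probes that fell under the limit at 3 days are left out, so that 70 and 48 of the 159 enter. Of the 70 recruited probes measured in soleus 3dex, 32 (45.7%) were lower after 3 days than after 1 month of exercise, against 45.3% of all 698 probes measured in both. Their median ratio of 3dex over Ex was 1.04, against 1.05 for all probes. Those measured in 3dex had a median of 1830 in Ex, and those not measured in 3dex had one of 1549. With heat added, 40 of 48 recruited probes (83.3%) were lower in 3dexac than in ExAc, with a median ratio of 0.706. Over all 560 probes measured in both, 90.5% were lower and the median ratio was 0.630.

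Heat on top of long training was compared as ExAc over Ex within soleus. Among the recruited probes, 90 were higher in ExAc and 69 lower, and the median log2 ratio was 0.11, against 0.16 over all 768 probes measured in both samples. The log2 ratio ran from -1.22 to 1.82. It was at least 2-fold higher for 17 recruited probes (10.7%), against 5.34% of all probes, and at least 2-fold lower for 4 (2.52%), against 2.34%. Both samples were used by the rule, and the limit bounds both values from below.

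In heart, 78 of the 159 recruited probes (49.1%) were measured in no sample, 41 in 1 sample, 24 in 2, 12 in 3 and 4 in 4 of the 7. Of the other dim probes, 54.7% were measured in no heart sample. The number measured was 33 in heart Ex, 21 in heart ExAc, 27 in 3dex, 18 in 3dexac, 13 in Acc and 26 in 2dac, against 3 in the heart control. Over the whole array, 63.5% of probes were measured in heart Ex, 63% in ExAc, 60% in 3dex, 58.4% in 3dexac, 56.1% in Acc and 51.6% in 2dac, against 50.1% in the heart control. The share was below that of the other dim probes in each treated heart sample, for example 16.4% against 21.5% in 2dac. Those others include the 53 probes that the heart rule removed, and for heart Ex and ExAc the rule itself lowers the count. Set against the 245 dim probes that long training did not recruit in soleus, the share in heart was higher in 3dex (17% against 10.6%) and 3dexac (11.3% against 8.57%) and nearly equal in Acc (8.18% against 7.76%) and 2dac (16.4% against 16.3%). In the control arrays, where low values were deposited, the recruited probes had a median of 607 in soleus and 377 in heart. Soleus was the higher in 136 of the 159 (85.5%), against 87.7% of all probes. In all, 45 recruited probes (28.3%) were measured in soleus Ex and ExAc and in no other of the 14 samples. The label of recruitment in long-trained soleus only therefore fitted these 45 strictly, and the other 114 were measured in at least 1 further sample.

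The 53 probes recruited by long training in both soleus and heart were set beside the 159. They were measured in 71.7% of cases in soleus 3dex and 49.1% in 3dexac, against 39.6% in Acc and 28.3% in 2dac. In heart their shares in the samples the rule did not use were 73.6% in 3dex and 58.5% in 3dexac, against 41.5% in Acc and 45.3% in 2dac. For the 159 probes the heart shares in these samples were 17% and 11.3%, against 8.18% and 16.4%. No test was made between these lists.

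Tests per probe were made on the 8 samples that the rule did not use, that is 3dex and 3dexac against Acc and 2dac in both tissues. They used limma on log2 of the normalized intensity plus 1219, with Benjamini-Hochberg adjustment over all probes tested. A probe entered when it lay above a common floor of 1963 in 5 or more of the 8 samples, and 482 probes entered. Only 1 of the 159 recruited probes passed this filter, and 158 were too dim, so the fits say nearly nothing about the list. For exercise 0 of 482 probes (0%) passed an adjusted p of 0.05 in limma, and 80 had an unadjusted p under 0.05. Exercise differed only between conditions, while this fit counted soleus and heart of a condition as separate samples. Its p-values therefore do not measure the spread between conditions. For the difference of the exercise effect between soleus and heart 0 of 482 passed (0%), with 30 at an unadjusted p under 0.05. Soleus differed from heart in 26 probes (5.39%), with 9 higher (1.87%) and 17 lower (3.53%), and 0 of them recruited. Leaving out 1 sample moved this count to between 0 and 29, and the exercise count to 12 without heart 2dac, again with 0 recruited probes.

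The recruited probe that was tested is R717. Its intensity was 2420 in soleus Ex, 2212 in ExAc, 2080 in 3dex, 2196 in 3dexac, 3889 in Acc and 1324 in 2dac, against 1165 in the soleus control. In heart it had 3783 in ExAc, 2174 in 3dex, 4200 in Acc and 2221 in 2dac, was empty in Ex and 3dexac, and stood at 696 in the control. R717 thus met the rule narrowly and was brightest after long heat without exercise in both tissues. Over the 8 samples R717 averaged 1875 ± 629 after normalization in exercised samples, against 3022 ± 894 in heat-alone samples (SD, n = 4 each). The 4 values of a group span 2 tissues and 2 conditions and are not replicates, and the empty heart 3dexac value was entered at the limit. These means were taken before the floor of 1963 was applied, whereas the fitted effects used it. The exercise effect was -0.31 ± 0.18 (SE) on the log2 scale, which did not pass (limma adjusted p = 0.404). The tissue difference of that effect was 0.26 ± 0.36 (limma adjusted p = 0.835), and soleus minus heart was 0.01 ± 0.14 (limma adjusted p = 0.971).

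To let the dim probes in, the fits were repeated without normalization on every probe measured in at least 1 of the 8 samples, a setting added after seeing the data. This tested 965 probes, 103 of them recruited. The exercise effect was above 0 in 77 of these 103 (74.8%), against 591 of all 965 (61.2%), and its median was 0.07 on the log2 scale in both. In limma 0 of the 103 passed for exercise, where 3 of 965 did (0.311%). At an unadjusted p under 0.05 stood 7 of the 103 (6.80%), 5 of them above 0, against 144 of 965 (14.9%). The difference between soleus and heart in the exercise effect was above 0 in 85 of the 103 (82.5%), with a median of 0.21, against 539 of all 965 (55.9%) and a median of 0.05. In limma 0 of the 965 (0%) passed for it. An unadjusted p under 0.05 was found for 7 of the 103 (6.80%), against 41 of 965 (4.25%). A probe that entered through the samples where it was measured had to differ, so these counts carry no weight as support. Without any filter on the normalized values, 18 of 1185 probes (1.52%) passed for that difference, among them 1 recruited probe, R411 (limma adjusted p = 0.0208). R411, singled out after its values were seen, had 3543 in soleus 3dex and 2251 in soleus 3dexac and was empty in the other 6 of the 8 samples, so its spread there was set by the floor.

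The recruited list was last compared with those found when another unexercised soleus sample took the place of the control. With soleus Acc there, 189 probes met the rule. They included 144 of the 159 recruited probes (90.6%) and were measured in 3dex for 51.3% and in 3dexac for 37.6%, against 3.70% in 2dac. By the rule, the shared 144 are the recruited probes not measured in Acc, so this overlap restates the 15 measured there. With soleus 2dac in that place, 319 met the rule and 151 of the 159 were among them (95.0%). This overlap likewise restates the 8 recruited probes measured in 2dac, so neither overlap is a check on the control. Of those 319, 65.2% were measured in 3dex and 53.3% in 3dexac, against 42.9% in Acc. The array as a whole stood at 63.7% in 3dex and 52.6% in 3dexac, against 58.7% in Acc, so that the 319 probes were near the background in the short exercise samples and under it in Acc. The list also changed when the arrays were rescaled. The limit rose with each rescaling, and the parts of scale and limit were not tested apart. On quantile-normalized values, where the common limit rose to 2040, 34 probes met the rule and 4 of them were among the 159. Of those 34, 94.1% were measured in 3dex and 88.2% in 3dexac, against 67.6% in Acc and 35.3% in 2dac. After median scaling, with a limit of 1914, 44 did and 8 were shared. Their shares were 84.1% in 3dex and 75% in 3dexac, against 63.6% in Acc and 31.8% in 2dac. Raising the limit alone to 2000 left 79 probes, 25 of them shared. These stood at 79.7% in 3dex and 58.2% in 3dexac, against 48.1% in Acc and 22.8% in 2dac. In these 3 lists a larger share was measured in Acc than among the 159. The shares in the exercised samples exceeded that in Acc by a smaller ratio. Measured still meant the original detection limit on deposited values, which is lower than the limits that chose these lists. Their probes could lie above it in the control as well. Whether their pattern differed from that of the 159 therefore cannot be read from these shares. The part that the number of probes measured per array has in the list was not tested.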

How the data were processed

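Radioactively labelled cDNA from total RNA was hybridised to arrays of 1185 probes, per the labels' protocols. The authors deposited 1 intensity per probe and sample on a linear scale. In 4 files it was recorded as other, because some lines lack a cell. For image software, background subtraction and scaling, nothing is given in the sources used here. The 12 treated samples hold no value under 1200 and 39.3% of their cells are empty, while the controls hold every probe. The deposited series table, an intensity in relative units, served as an alternative.

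Counts used the deposited intensities with a limit of 1200. For the fits, values under the limit were entered at it, the 8 samples were quantile-normalized, and log2(intensity + 1219) was fitted with limma 3.58.1 in R 4.3.3, two-sided. The pseudocount is the 10th percentile of the deposited values, and a fold on this scale understates changes of dim probes. A fit for exercise held tissue as a term (5 residual degrees of freedom), its tissue difference a product term (4), and soleus against heart the condition as a block (3). The fits were also run on simulated data with known changes and independent noise. Those data held no condition or array effects, so they do not show how the fits perform on these samples.

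The probes and lists were chosen with earlier results of these data known. Named were the 2 recruited probes with the largest ratio and, for each fit, up to 2 per direction. Whether samples come from separate animals is not stated in the labels, so the p-values reflect only how these samples vary, and their number limits the precision. Alternatives were other limits, scalings, pseudocounts, filters, unexercised samples and each sample left out.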

Additional observations from a re-analysis of the deposited data

How the results depend on the processing

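The number of recruited probes, 159, was 105 with a limit of 1500, 79 with 2000, 34 on quantile-normalized values, 44 after median scaling, 319 with soleus 2dac in place of the control and 78 when a probe measured in any heart sample was left out. Deciding on 1 long-trained soleus sample gave 226 or 253. It was 189 with soleus Acc in place of the control, 212 without the heart exclusion and 124 from the series table. Recruited probes in soleus 3dex fell to 31 at a limit of 2000, in 3dexac to 30 at 1500 and 16 at 2000, in Acc to 3 at 2000, and in 2dac to 4 and 3. In heart the counts were 17 and 11 in 3dex at these limits, 8 and 2 in Acc, and at 2000 they were 4 in 3dexac and 17 in 2dac. For exercise the 0 calls in limma became 2 without a filter and 3 without normalization on probes measured in at least 1 sample, and 0 to 12 with 1 sample left out. For its tissue difference they became 18 without a filter, 1 in the short arms alone, and 0 to 1 with 1 sample left out. For soleus against heart the 26 calls became 0 without a filter, 0 from the series table, 0 without normalization on probes measured in at least 1 sample, and 0 to 29 with 1 sample left out. The causes were not tested. R717 changed sign for exercise with heat and duration as terms (0.0177) and in 3dexac against 2dac alone (0.0194). Its tissue difference ran from -0.011 without soleus 2dac to 0.545 without soleus Acc. Its soleus minus heart value was -0.016 without normalization with either filter, and ran from -0.0873 without heart 3dexac to 0.0806 without soleus 2dac. The labels carry no replicate numbers. Soleus and heart were paired within a condition as a block, and without it 25 probes passed. Signal close to the limit restricts most recruited probes to a measured or unmeasured call.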

Other observations

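Outside the long-trained soleus samples, the 4 recruited probes with the highest value had it in heart after 2 days of heat (R406, R492, R643 and R278), at 6505 to 12713. The second highest single value was that of R406 in heart 3dex. Of the 159 probes, 6 reached 4000 in heart 2dac, against 0 in the heart control and 0 or 1 in each other treated heart sample. In soleus 4 reached it in 3dex and 0 in 3dexac, Acc and 2dac. Of the other 298 probes under 1200 in the soleus control, 12 reached 4000 in heart 2dac. In each other treated heart sample 1 to 4 of them did, against 0 in the heart control. High values in heart 2dac were thus not particular to the recruited probes, and no share over all probes was taken. These probes are named after their values were seen. R406 had 12713 in heart 2dac and 8145 in heart 3dex, 1549 in heart Ex and 418 in the heart control, while in soleus it had 1695 in Ex, 1345 in ExAc and 2984 in 2dac, against 434 in the control. R278 had 6505 in heart 2dac and was empty in the other 5 treated heart samples, with 181 in the heart control. In soleus R278 was measured in Ex at 2370 and in ExAc at 1840.5 and in no other treated sample. These comparisons rest on 1 array each and have no test. The 26 recruited probes measured in heart 2dac had a median of 2518, against 1601 to 1901 in the other 5 treated heart samples. Over all probes measured, the median was 3272 in heart 2dac. It was 2759 in heart ExAc and 3711 in heart Acc, the lowest and highest of the other treated heart samples.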
